A study of Mus musculus with 4 samples.

Results

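The Hox genes of the mouse were followed in differentiating P19 cells. The members were all probe sets of the deposited table whose single annotated gene symbol is a Hox cluster letter (a to d) with a paralog number, and each gene was represented by its probe set with the highest mean log2(intensity + 16). This gave 31 genes from 37 probe sets, out of 12393 genes with a single symbol on the array. A further 3 probe sets carry more than 1 Hox symbol and were left out. Hox genes without a probe set of their own in the annotation were not analysed here.

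P19 is a mouse embryonal carcinoma line that takes on neural fates when it is aggregated with retinoic acid. The control group was unmodified P19 cells and the other group was P19 cells that constitutively express human LIN28A, which binds RNA and holds back processing of let-7 microRNA precursors. All-trans retinoic acid was given at 5e-07 M to aggregates of both lines over 4 days. Each line has 2 arrays, numbered 1 and 2 in the labels. The promoter of the LIN28A transgene and the number of clones are not given in the sources used here, and the control is the unmodified line rather than one with an empty vector, as far as the labels say.

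Hox genes encode homeodomain transcription factors that set positional identity along the body axis. In mammals they lie in 4 clusters, and genes at the same place in different clusters form 13 paralog groups. The low-numbered groups lie at the 3' end of a cluster, respond first to retinoic acid and pattern the hindbrain, while high-numbered groups are used further back, in the trunk, limbs and tail. Groups 1 to 5 are called anterior here and groups 6 to 13 posterior, which divides the members into 12 and 19.

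Neural markers ranged from dim to bright. The neural progenitor factor Sox2 read 1902 and 1697 (control) against 1557 and 1295 (LIN28A), and the neuronal tubulin gene Tubb3 read 508 and 540 against 372 and 644. The progenitor gene Sox1 read 11.6 and 36.7 against 12.5 and 17.2, and the neuronal gene Map2 21.5 and 117 against 8.60 and 35.8. As for the other progenitor genes, Sox3 read 57.0 and 208 against 140 and 120, and Pax6 106 and 199 against 212 and 111. Nes read 138 and 175 against 237 and 116, and Fabp7 565 and 1955 against 613 and 735. Of the hindbrain and spinal cord markers, Isl1 passed the filter, at 43.4 and 50.4 against 23.4 and 59.8, while Olig2 and Nkx2-2 read between 0.4 and 14.9 and did not. Arrays of the same number resembled each other more than arrays of the same line, with Pearson's r of 0.97 for each same-numbered pair. It was 0.93 for the control pair and 0.94 for the LIN28A pair, taken across probe sets, which are not independent replicates. Over the 31 Hox genes alone, r ranged from 0.949 to 0.969 for all pairs of arrays. The mouse Lin28a probe sets do not measure the human transgene and so do not check the labels. RNA came from whole aggregates, so fewer cells of a type and less RNA per cell cannot be told apart.

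Hox signal at day 4 was found in the anterior and middle groups of the clusters and was near the floor in groups 10 to 13. Probe sets differ in how strongly they bind, so intensities are given gene by gene and are not amounts of RNA to be ranked between genes. A gene was kept for testing when its mean log2(intensity + 16) over the arrays reached the 30th percentile of all probe sets, an intensity of about 8.04. Of the 31 members 23 did, beside 8930 of all 12393 genes. All 12 anterior members passed, and 11 of them lay above the median of all probe sets, an intensity of about 35.05. In groups 6 to 9, 9 of 10 members passed and 7 lay above that median. In groups 10 to 13, 2 of 9 passed and 0 lay above it. These counts of 11 anterior and 7 posterior members above the median were the same under quantile normalization, median centring and pseudocounts of 1 and 64. The median is taken over all probe sets, while each member is represented by its brightest probe set.

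**Figure D1:**
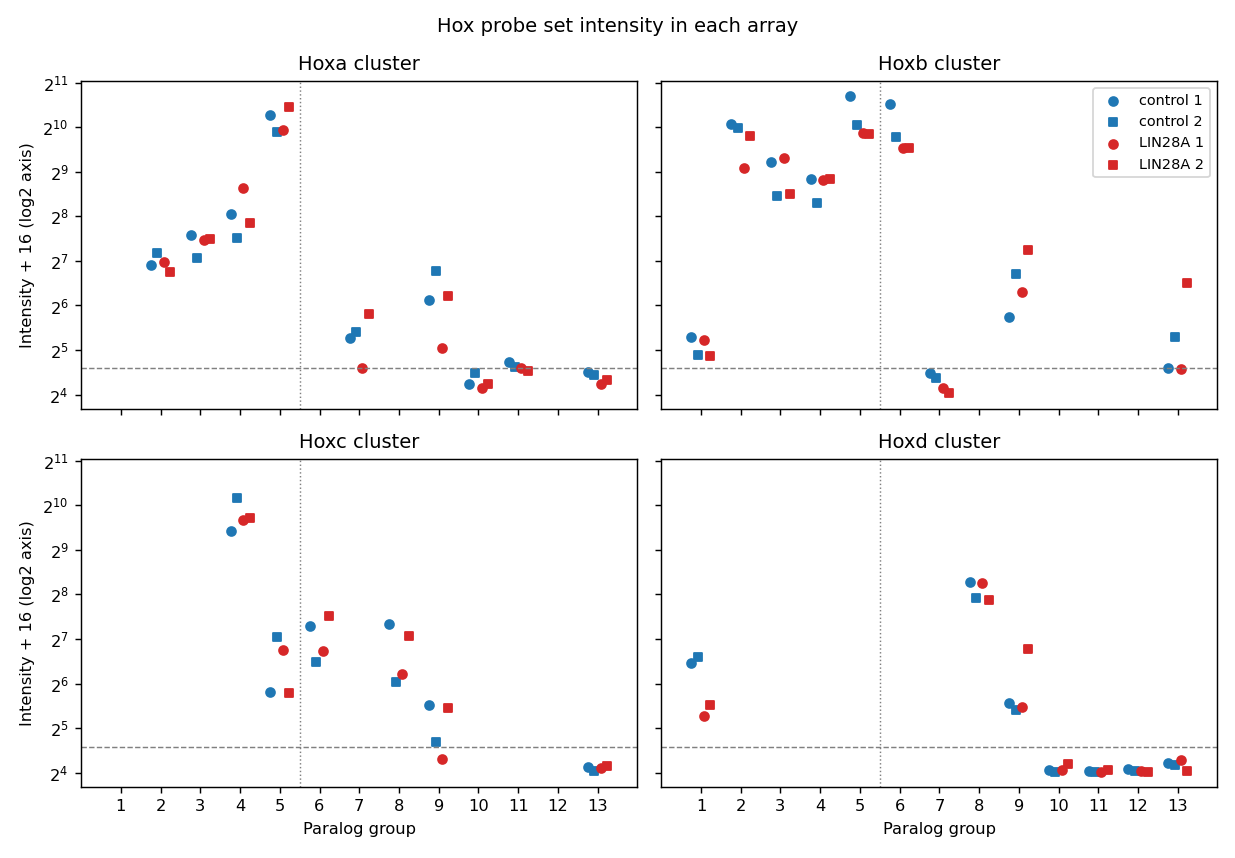
Intensity plus 16 (log2 axis) of the 31 Hox genes in each array, 1 panel per cluster, by paralog group. Circles are arrays numbered 1 and squares arrays numbered 2, blue for control and red for LIN28A. The dashed line is the filter (intensity 8.04) and the dotted line divides groups 1 to 5 from 6 to 13. Groups 10 to 13 sit near or below the filter apart from the number 2 arrays of Hoxb13.

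In the Hoxa cluster, intensity was followed from group 2 to group 13. Hoxa2, which patterns the hindbrain and the branchial arches, read 103 and 129 (control) against 109 and 91.8 (LIN28A). Hoxa3, needed for thymus and parathyroid, read 177 and 118 against 161 and 164, and its other probe set 66.9 and 52.4 against 50.0 and 61.3. The arrays of the lines overlapped for both genes.

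Hoxa4, a neighbour of Hoxa5 in the cluster, read 251 and 167 (control) against 380 and 214 (LIN28A). Hoxa5, which is active in the neck region and the lung, read 1230.5 and 939 (control) against 966 and 1386 (LIN28A). On this probe set Hoxa4 was higher in the LIN28A array of each number, and both number 1 arrays read higher than their number 2 partners, so the lines overlapped. The other Hoxa4 probe set read 15.4 and 13.5 against 25.7 and 13.1, with a difference of -0.02 in number 2. Hoxa5 was lower in LIN28A cells in number 1 and higher in number 2.

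Of the posterior Hoxa members, 3 of 5 passed the filter. Hoxa7, a trunk gene, read 22.6 and 26.5 (control) against 8.40 and 39.7 (LIN28A). Hoxa9, which also acts in blood progenitors, read 54.2 and 93.9 (control) against 17.2 and 58.5 (LIN28A). Hoxa11, a limb and reproductive tract gene at the edge of the filter, read 10.6 and 8.50 against 8.10 and 7.00. Hoxa10 and Hoxa13 did not pass the filter and read between 1.70 and 6.90.

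In the Hoxb cluster, 6 of 9 members lay above the median of all probe sets, beside 5 of 9 in Hoxa, 4 of 6 in Hoxc and 3 of 7 in Hoxd. Hoxb1, an early and direct retinoic acid target of the hindbrain, was the anterior member below that median, with 23.2 and 13.7 (control) against 21.5 and 13.1 (LIN28A). Hoxb3, a hindbrain gene of the next segments, read 577 and 334 (control) against 620 and 344 (LIN28A). Both were higher in number 1 than in number 2 in each line, and hardly different between the lines.

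Hoxb4, known for its role in blood stem cells, read 444 and 298 (control) against 435 and 442 (LIN28A). Its other probe set read 32.6 and 101 (control) against 39.7 and 146 (LIN28A), and there number 2 was the higher in both lines. The probe sets of this gene thus disagree on the order of the arrays.

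Hoxb9, a thoracic gene, read 37.4 and 88.1 (control) against 62.8 and 135 (LIN28A). Hoxb13, the most posterior gene of its cluster and active in tail and prostate, read 8.30 and 23.0 (control) against 7.80 and 74.3 (LIN28A). Hoxb9 was higher in the LIN28A array of each number by nearly the same amount, 0.56 in number 1 and 0.54 in number 2 on the log2(intensity + 16) scale, while Hoxb13 rested on a single array, LIN28A 2. Hoxb7 did not pass the filter, at 6.50 and 4.70 (control) against 1.80 and 0.300 (LIN28A). A probe set annotated to both Hoxb7 and Hoxb8, left out by the single-symbol rule, read 126.5 and 683 against 107 and 843, so a dim own probe set does not show that Hoxb7 was absent.

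In the Hoxc cluster, the arrays of the lines overlapped for every member. Hoxc4, the first gene of this cluster, read 665 and 1129 (control) against 794 and 817 (LIN28A). Hoxc5 read 40.5 and 117 (control) against 92.0 and 38.9 (LIN28A), so its high arrays were control 2 and LIN28A 1.

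The posterior Hoxc genes had the opposite order of arrays. Hoxc6, a gene of the forelimb level of the spinal cord, read 140 and 73.5 (control) against 90.1 and 167 (LIN28A). Hoxc8, also active at that level, read 145 and 49.8 (control) against 58.0 and 119 (LIN28A). Hoxc9, which sets thoracic motor neuron identity, read 29.7 and 9.70 (control) against 3.90 and 27.7 (LIN28A). For all 3, control 1 and LIN28A 2 were the high arrays. Another Hoxc6 probe set had a narrower range, with 109 and 92.3 (control) against 90.7 and 136 (LIN28A). The remaining, dim one ran the other way, at 2.70 and 7.40 against 20.2 and 7.20, so the probe sets of Hoxc6 disagree. Hoxc13 did not pass the filter and read 0.500 to 1.80.

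In the Hoxd cluster, 3 of 7 members passed the filter. Hoxd8, a trunk gene, read 293 and 225 (control) against 290.5 and 217 (LIN28A), which repeats almost the same pair of values in both lines. Hoxd9, a gene of the lower trunk and limbs, read 31.2 and 26.4 (control) against 28.7 and 94.1 (LIN28A), with LIN28A 2 alone standing high. Hoxd10, Hoxd11, Hoxd12 and Hoxd13, which act in limb and digit formation, read 0.200 to 3.50 in all arrays. A probe set annotated to both Hoxd3 and Hoxd4, left out by the single-symbol rule, read 47.1 and 91.6 against 75.1 and 75.8. Another such probe set read 6.30 and 45.9 (control) against 48.1 and 53.2 (LIN28A). Both LIN28A arrays were the higher there, by 0.84 ± 0.51 (SE), but this probe set is outside the counts of members.

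Hoxd1, which is used in pain-sensing neurons, was the member whose lines stood furthest apart. It read 71.6 and 81.1 (control) against 22.5 and 30 (LIN28A). Both LIN28A arrays lay below both control arrays, and the gap was larger than the spread within either line. The control mean was 76.3 ± 6.72 (SD, n = 2) and the LIN28A mean 26.2 ± 5.30 (SD, n = 2), a log2 difference of -1.13 ± 0.29 (SE). Within number 1 it was -1.19 and within number 2 -1.08, and leaving out 1 array gave -1.26 to -1.004. The limma test gave an unadjusted p of 0.0080, which did not pass after Benjamini-Hochberg adjustment over all probe sets (adjusted p = 0.999997). The size rested on the added constant, at -1.52 with a pseudocount of 1 and -0.64 with 64. Without LIN28A replicate 1 the unadjusted p was no longer under 0.05.

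Promoter letters are shown for 4 members that mark the range of the data: Hoxd1, the gene with the largest difference between the lines, Hoxc4 and Hoxd8, with signal in every array, and Hoxd13, at the floor. They come from RefSeq on GRCm38.p6, as the 250 bases before the annotated start, read 5' to 3' on the gene's strand. Capitals mark the retinoid receptor half-site AGGTCA on either strand (TGACCT when read on the other) or the TATA motif TATAAA on the gene's strand.
Hoxd1, chr2:74762730-74762979, plus strand: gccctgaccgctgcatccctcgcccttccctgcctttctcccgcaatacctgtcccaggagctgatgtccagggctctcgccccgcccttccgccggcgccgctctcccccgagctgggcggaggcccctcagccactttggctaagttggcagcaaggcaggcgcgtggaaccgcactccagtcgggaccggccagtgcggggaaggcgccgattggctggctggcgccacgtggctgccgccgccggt
Hoxc4, chr15:103034145-103034394, plus strand: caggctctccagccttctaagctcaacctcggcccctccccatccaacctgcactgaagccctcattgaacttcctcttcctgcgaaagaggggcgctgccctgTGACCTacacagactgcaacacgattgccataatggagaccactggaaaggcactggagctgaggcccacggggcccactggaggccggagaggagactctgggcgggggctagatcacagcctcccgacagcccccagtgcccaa
Hoxd8, chr2:74704365-74704614, plus strand: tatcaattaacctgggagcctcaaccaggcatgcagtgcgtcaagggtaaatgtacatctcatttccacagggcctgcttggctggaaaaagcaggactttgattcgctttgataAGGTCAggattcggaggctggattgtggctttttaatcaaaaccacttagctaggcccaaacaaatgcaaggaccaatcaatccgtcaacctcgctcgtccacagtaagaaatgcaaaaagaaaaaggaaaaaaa
Hoxd13, chr2:74667975-74668224, plus strand: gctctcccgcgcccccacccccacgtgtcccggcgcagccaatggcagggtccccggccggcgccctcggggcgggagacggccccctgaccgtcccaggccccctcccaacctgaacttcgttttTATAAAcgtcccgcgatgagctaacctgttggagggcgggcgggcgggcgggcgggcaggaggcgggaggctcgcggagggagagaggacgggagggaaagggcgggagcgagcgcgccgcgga

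The sequence table held windows of 300 bases, 250 before to 50 after the start, for 18 of the 31 members, 20 windows in all. The half-site AGGTCA, searched on both strands, was found in 5 of the 20 windows, those of Hoxa5, Hoxb4, Hoxc4, Hoxd8 and Hoxd10, against 16.3% of all 32851 windows. Its direct repeats, AGGTCA followed by AGGTCA after any 5 or any 2 bases, were in 0 of the 20 windows and in 0.00913% of all windows each; every repeat also counts as a half-site. TATAAA on the gene's strand was in 1 Hox window, that of Hoxd13, against 8.32% of all windows. The Hoxd1 window held none of these. Members with a half-site include genes bright in all arrays and Hoxd10, which was at the floor. The 250 bases of Hoxd1 and Hoxd13 shown here were 71.6% and 74.4% G or C, against 62% for Hoxc4 and 44.4% for Hoxd8. Hoxb2, Hoxb5 and Hoxb6 had no window in the table.

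The comparison of the lines asks which Hox genes differ when LIN28A is kept on during retinoic acid differentiation. Of the 23 members past the filter, both LIN28A arrays lay below both control arrays for 5, Hoxa11, Hoxb2, Hoxb5, Hoxb6 and Hoxd1, and above them for 0. Over all 8930 genes past the filter this held for 16.6% in the lower and 11.5% in the higher direction. Over all 31 members it was 7 lower and 0 higher, the added genes being Hoxa13 and Hoxb7, whose own probe sets lay under the filter, against 18.3% and 10% of all 12393 genes. With 5 of 23 lower, the share was near the background, so the count is not a result about Hox genes. No member passed limma's test at an adjusted p under 0.05, which called 0% of probe sets in either direction, and 1 member, Hoxd1, had an unadjusted p under 0.05, against 1.21% of probe sets (1.34% of genes) in the lower and 0.442% (0.493% of genes) in the higher direction. With 2 arrays against 2, an exact permutation test of 1 gene cannot go below a two-sided p of 0.333, so none is given.

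Apart from Hoxd1 and Hoxa11, the members that lay lower in both LIN28A arrays were bright Hoxb genes. Hoxb2, which patterns the hindbrain, read 1054.5 and 991 (control) against 523 and 872 (LIN28A). Its log2 difference was -0.59 ± 0.35 (SE), with -0.99 in number 1 and -0.18 in number 2, and -0.23 without LIN28A replicate 1. The low array was LIN28A 1, and LIN28A 2 was close to the control arrays.

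Hoxb5, a gene of the lower hindbrain and neck level, read 1648.5 and 1036 (control) against 926 and 903 (LIN28A). Hoxb6, its neighbour towards the 5' end of the cluster, read 1446 and 859 (control) against 724 and 728 (LIN28A). In both genes control 1 was well above the other arrays, control 2 came next and the LIN28A arrays lay close together. The log2 differences were -0.51 ± 0.34 (SE) for Hoxb5 and -0.61 ± 0.35 (SE) for Hoxb6, and without control replicate 1 they were -0.18 and -0.24. Control 1 therefore set most of the size of both. Under median centring neither gene kept its LIN28A arrays below both control arrays. That scaling left 2 members lower, Hoxb2 and Hoxd1, and 1 higher, Hoxd9, where all genes past the filter were 9.03% lower and 19.9% higher. Median centring moved the median log2 difference of all probe sets from -0.05 to 0.08. Quantile normalization left 5 lower, with Hoxa9 in the place of Hoxa11, and 1 higher, Hoxd9, against 13.6% and 14.6% of all genes.

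**Figure D2:**
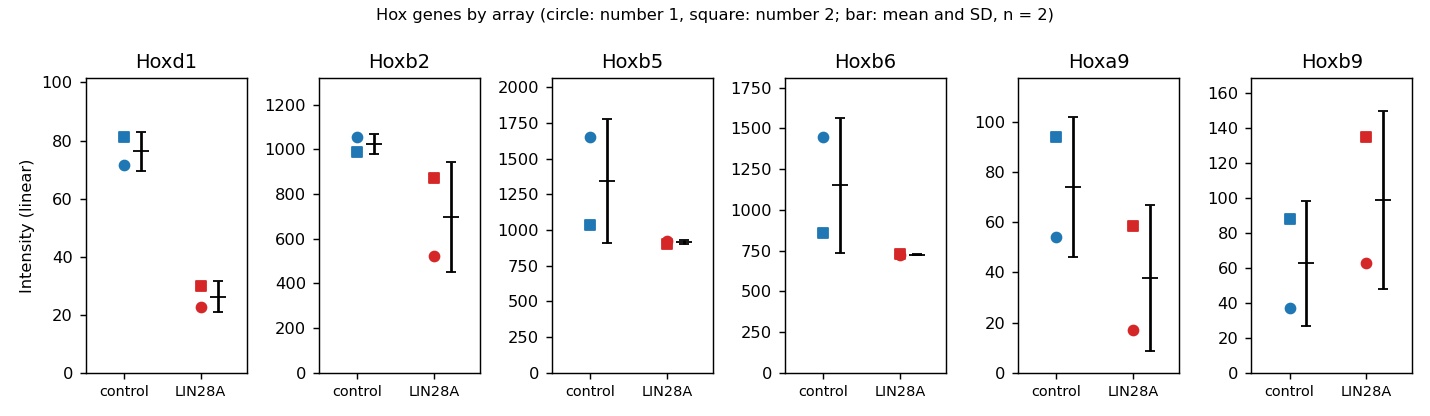
Linear intensity of Hoxd1, Hoxb2, Hoxb5, Hoxb6, Hoxa9 and Hoxb9 in the control and LIN28A arrays, each axis starting at 0. Circles are number 1, squares number 2, and black bars give the mean and SD (n = 2). The lines are apart for Hoxd1, the control SD of Hoxb5 and Hoxb6 comes from the high control 1, and Hoxa9 and Hoxb9 differ by number as well as by line.

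Among members past the filter whose lines overlapped, Hoxa4, Hoxa9 and Hoxb9 kept a direction in both numbers. Hoxb1, Hoxb3 and Hoxd8 did so too, with smaller differences. Hoxa9 differed by -0.82 ± 0.48 (SE), with -1.08 in number 1 and -0.56 in number 2, and by -0.19 at its dimmer probe set, where both LIN28A arrays lay below both control arrays. Hoxb9 differed by 0.55 ± 0.48 (SE), with 0.56 in number 1 and 0.54 in number 2. The other large positive differences, 0.65 for Hoxd9 and 0.59 for Hoxb13, were -0.08 and -0.03 in number 1, and 1.38 and 1.21 in number 2. Hoxa4 differed by 0.45 ± 0.39 (SE), with 0.57 and 0.33 in the numbers, and by 0.056 without LIN28A replicate 1. Without LIN28A replicate 2, Hoxb13 differed by -0.37 and Hoxd9 by -0.0012. Leaving out control 1 gave 0.067 for Hoxb9, leaving out LIN28A 2 gave 0.080, and leaving out control 2 or LIN28A 1 gave 1.03 and 1.02. Hoxa9 came to -0.24 when LIN28A 1 was left out, -0.50 for control 2 and -1.40 for LIN28A 2. None of these passed the adjusted test.

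The bright members outside these had small differences for their error. Hoxa5 differed by 0.11 ± 0.33 (SE), Hoxc4 by -0.10 ± 0.35 (SE), Hoxc6 by 0.24 ± 0.43 (SE) and Hoxd8 by -0.03 ± 0.32 (SE). For each of the 4 the sign turned when some array was left out.

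Set against each other by position, anterior and posterior Hox genes had medians near 0 when the numbers were averaged, and the posterior medians of the separate numbers had opposite signs. The anterior median of LIN28A minus control was -0.08 over 12 members, with -0.05 in number 1 and -0.11 in number 2. The posterior median over the 11 members past the filter was -0.04, with medians of -0.56 in number 1 and 0.54 in number 2. These medians fall on different genes, so the first is not the mean of the others. Over all 19 posterior members, with 8 at the floor, it was -0.03, with -0.09 and 0.04. All genes past the filter had medians of -0.08 in number 1 and 0.01 in number 2. The anterior minus posterior median was -0.03 over both numbers, 0.51 in number 1 and -0.64 in number 2. No test was made of these medians, since genes are not replicates and each number holds 1 array per line.

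**Figure D3:**
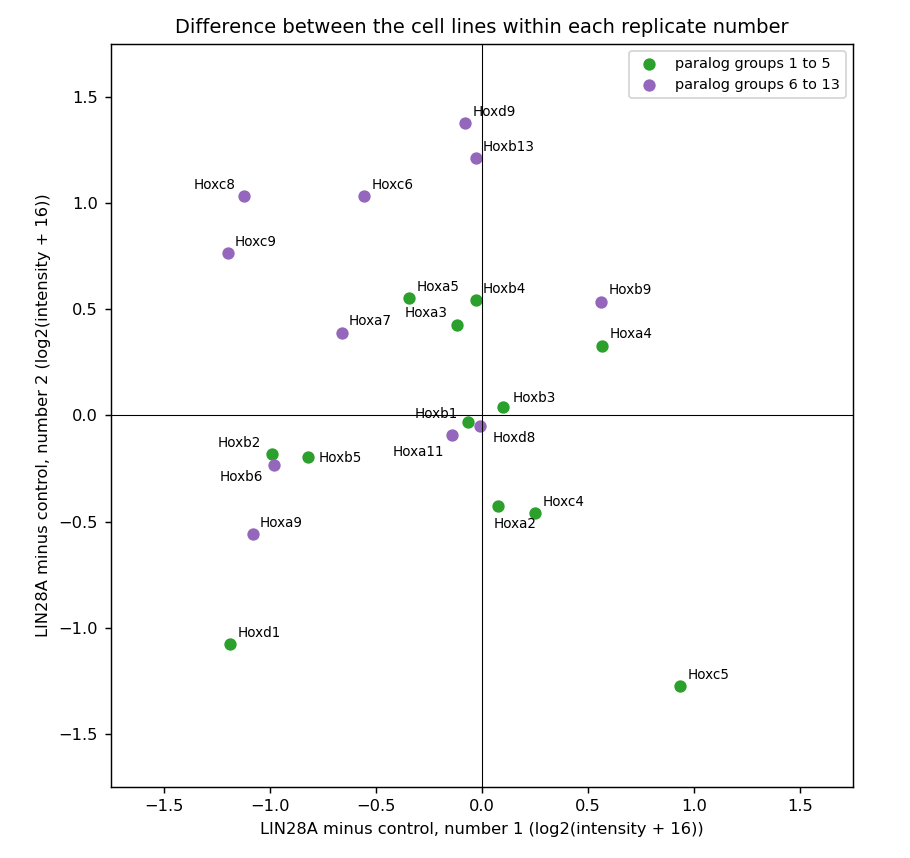
Log2(intensity + 16) difference of LIN28A minus control within number 1 (horizontal) and within number 2 (vertical) for the 23 Hox genes past the filter, green for groups 1 to 5 and purple for groups 6 to 13. Hoxc6, Hoxc8, Hoxc9 and Hoxa7 lie below 0 in number 1 and above 0 in number 2, Hoxc5 the other way, and Hoxd1 lies near -1.19 and -1.08.

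Direction agreed between the numbers for 11 of the 23 members past the filter. Of these, 3 were above 0 in both numbers, Hoxa4, Hoxb3 and Hoxb9, and 8 were below. The remaining 12 changed sign from one number to the other, 6 anterior and 6 posterior, where 41.2% of all genes past the filter did so. Hoxc8 differed by -1.12 in number 1 and 1.03 in number 2, Hoxc9 by -1.20 and 0.77, and Hoxc6 by -0.56 and 1.03. Hoxc5 differed by 0.93 in number 1 and -1.28 in number 2. All 5 members of the Hoxc cluster past the filter had opposite signs in the numbers, as did 4 of 7 in the Hoxa, 2 of 8 in the Hoxb and 1 of 3 in the Hoxd cluster. The clusters were not tested against each other.

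The arrays were also compared by number, and the members set apart by it were no more frequent than in the background. Both number 2 arrays lay above both number 1 arrays for Hoxa7, Hoxa9, Hoxb9, Hoxb13 and Hoxc4, and below them for Hoxa4, Hoxb1, Hoxb3 and Hoxd8. That is 5 and 4 of 23 members, against 31.1% and 22.9% of all genes past the filter (24.4% and 25.2% with no filter). What the numbers stand for is not given in the labels.

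Retinoid receptors and enzymes lay on both sides. Of 11 past the filter, 1 was higher and 3 were lower in both LIN28A arrays, against 11.5% and 16.6% of all genes. Rara and Rarb, retinoic acid receptors, read 34.5 and 33.8 against 20.6 and 27.0, and 482 and 462 against 410 and 333. Aldh1a2, the enzyme that makes retinoic acid in the embryo, read 94.3 and 36.0 (control) against 33.4 and 33.5 (LIN28A). Under median centring Rara alone stayed lower, and under quantile normalization Rara and Rarb did. Rxra, a partner receptor, read 58.4 and 84.8 against 108 and 96.7, and was higher under both scalings. None passed the adjusted test.

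Cyp26a1, which breaks down retinoic acid and is itself a strong retinoic acid target, was picked out after its values were seen. It read 1095 and 92.9 (control) against 603 and 696 (LIN28A), a difference of -0.84 in number 1 and 2.71 in number 2. Dhrs3 and Stra6, also retinoic acid targets and chosen the same way, read 583 and 140 against 327 and 343, and 91.1 and 38.8 against 57.1 and 105.5. All 3 were lowest in control 2 and had the same change of sign between the numbers as Hoxc6, Hoxc8 and Hoxc9. Rarg of the same list changed sign likewise, at -0.51 in number 1 and 0.06 in number 2, but was lowest in LIN28A 1. The remaining genes of the list past the filter did not have this change of sign. Crabp1 and Crabp2, which bind retinoic acid in the cell, differed by 0.97 and 0.29 in number 1 and by -0.60 and -0.34 in number 2, and Rarb by -0.23 and -0.45. The pattern was also seen outside this list. The pluripotency gene Nanog read 70.8 and 5.70 (control) against 10.4 and 37.8 (LIN28A), with -1.72 in number 1 and 1.31 in number 2. Of all genes past the filter, 41.2% changed sign between the numbers, in either direction. The part of the retinoid genes in the Hox values was not tested.

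Hox cofactors also lay on both sides. Among 8 Hox cofactors past the filter, Pbx2 was higher (516 and 474 against 538 and 640) and Meis3 and Pknox2 were lower in both LIN28A arrays, counts of 1 and 2 beside the same 11.5% and 16.6%. Meis3 lost that order under both scalings and Pbx2 under quantile normalization. Meis1, a main partner of Hox proteins, read 730 and 968 (control) against 504.5 and 764 (LIN28A), and overlapped. Of 8 upstream factors, 6 had a probe set and 2 passed the filter. Gbx2, which marks the front of the hindbrain, read 52.6 and 194 (control) against 29.3 and 53.0 (LIN28A), with both LIN28A arrays lower under quantile normalization and median centring. Otx2, of the forebrain and midbrain, read 95.5 and 228 against 54.9 and 351.5. The caudal genes Cdx1, Cdx2 and Cdx4, activators of posterior Hox genes, read between 0.100 and 14.8 in every array and did not pass the filter.

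Chromatin regulators of the Hox clusters that separated the lines were all higher in LIN28A cells. Of 10 past the filter, 4 were higher and 0 lower in both LIN28A arrays, against 11.5% and 16.6% of all genes, with a median difference of 0.16 beside -0.04 for all genes past the filter. Ezh2, the enzyme of Polycomb repressive complex PRC2 that methylates histone H3, read 826 and 688 (control) against 1356 and 957 (LIN28A). Cbx2, a Polycomb reader, read 291 and 312 against 385 and 383. Kmt2a, which maintains Hox expression, read 176 and 200.5 against 211 and 254, and the demethylase gene Kdm6a read 109 and 141 against 158 and 158. The same 4 were higher under quantile normalization, with Ezh1, and under median centring, with Ezh1 and Men1. Those scalings also raised the share of all genes past the filter that were higher, to 14.6% and 19.9%. Men1 had a difference of -0.05 in the deposited values. None of them passed limma's adjusted test, and the PRC2 subunit genes Eed and Suz12 overlapped between the lines. Of 6 homeobox genes outside the clusters, Evx2 alone passed the filter, at 7.70 to 10.5.

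Markers of other cell types were read beside these values, and none passed the adjusted test. Of 7 neuronal markers, all past the filter, 2 were lower in both LIN28A arrays, beside 16.6% of all genes. Their median difference was -0.92, with -0.61 in number 1 and -0.51 in number 2. All genes past the filter had -0.04, with -0.08 and 0.01. Tubb3 alone of the 7 changed sign, at -0.43 and 0.25, and the others were lower in LIN28A cells in both numbers. The summed intensity of the 7 was 2089 and 3206 (control) against 1079 and 2416 (LIN28A), which overlap. Among 6 neural progenitor markers past the filter, 1 (Sox2) was lower and 0 higher in both LIN28A arrays, beside 16.6% and 11.5%. The median difference of these 6 was -0.12, with 0.41 in number 1 and -0.69 in number 2. Of 4 smooth muscle and fibroblast markers past the filter, 3 were higher, beside 11.5% of all genes, with sums over the 5 named of 188 and 90.1 against 305 and 333. Pluripotency markers summed to 156 and 399 against 69.6 and 852, led by Pou5f1 in the number 2 arrays, with 1 of 4 higher. The 5 mesoderm markers with a probe set read 1 to 20.9, and 1 of the 4 past the filter, Meox1, was higher (18.2 and 3.30 against 20.8 and 18.8). Of 6 endoderm markers, Lama1 read 167 and 383 against 127 and 336, Gata6 reached 24.6, and the other 4 read 0.600 to 10. The 3 probe sets for 18S ribosomal RNA read 136 to 677 in control 1, 69.3 to 146 in LIN28A 1, 9.20 to 13.5 in control 2 and 11.1 to 13.2 in LIN28A 2. The part of these markers in the Hox values was not tested.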

How the data were processed

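Each of 4 samples was hybridised to a 1-colour Affymetrix array. Linear intensity values for 22690 probe sets were deposited by the authors, and all sample columns were used. For probe summarisation, software was not given in the sources used. A mean that leaves out 2% of values at either end came to 150.1 in each array, so the deposited intensity values were taken as already scaled. Detection calls were not used here.

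Intensities were turned into log2(intensity + 16), a scale that understates the change of low genes. The 64 control probe sets were left out, and 15838 probe sets at or above the 30th percentile were tested with limma 3.58.1 in R 4.3.3 (lmFit, eBayes, no trend, no block; Benjamini-Hochberg, threshold 0.05). The test was also run on simulated data, with planted changes larger than any Hox difference and no effect of the replicate number. That run does not show its power for the Hox genes. All 31 Hox gene identifiers were found in the RefSeq table. Arrays were not paired by number. The labels do not say that repeats were separate cultures, and p-values then cover the spread among these arrays alone, possibly technical spread; the few arrays limit precision.

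Full statistics were set for the brightest 2 genes of each cluster and the 4 largest differences in each direction. From the other lists, up to 4 genes each were named, those whose LIN28A arrays both lay above, or both below, the control arrays; further list genes named in the text were chosen after their values were seen. The Hox members and the other gene lists were chosen with earlier results of these data known. Alternatives changed the scaling, pseudocount, filter, probe set choice, trend, replicate block and the arrays used.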

Additional observations from a re-analysis of the deposited data

How the results depend on the processing

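Every alternative had been planned. For values that moved or turned, the cause was not tested. Same-numbered arrays deviated together (r = 0.62 over 15838 probe sets, 2 pairs), but their labels give no more than a shared number, so the replicate block is an alternative here. Depth is not defined for arrays; signal near the floor limits Hox groups 10 to 13. Of 156 values computed for 13 named Hox genes, 140 kept their direction and 16 turned; 117 of them had an adjusted p, and 0 of those were under 0.05. The turns were in Hoxa5, Hoxb13, Hoxc4, Hoxc6, Hoxd8 and Hoxd9. Within number 1 they were -0.34 (Hoxa5), -0.030 (Hoxb13), 0.25 (Hoxc4), -0.56 (Hoxc6) and -0.079 (Hoxd9). Under median centring they were 0.023 (Hoxc4) and 0.10 (Hoxd8). Without 1 array, the range was -0.15 to 0.36 for Hoxa5, -0.37 to 1.55 for Hoxb13, -0.48 to 0.27 for Hoxc4, -0.16 to 0.64 for Hoxc6, -0.23 to 0.17 for Hoxd8 and -0.0012 to 1.30 for Hoxd9. Hoxd1 and the other 6 named genes kept their direction.

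Of Hox genes, 1 was higher in both LIN28A arrays under quantile normalization, 1 under median centring and 1 when probe sets of 1 gene were averaged (Hoxc6), against 0, and 2 were lower under median centring, against 5. The anterior median of -0.08 was -0.023 under quantile normalization and 0.052 under median centring, and -0.23 to 0.034 without 1 array. The posterior median ranged from -0.37 to 0.39 and the anterior minus posterior median from -0.62 to 0.41 without 1 array.

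Over all probe sets, the replicate block called 1 higher and 0 lower, or 3 and 0 with eBayes trend. No Hox gene was called in either case (lowest limma adjusted p = 0.338 and 0.249, for Hoxd1). Of the 23 Hox genes tested, 3 had an unadjusted limma p under 0.05 with the block, Hoxa9, Hoxb9 and Hoxd1. With trend as well there were 7, the added genes being Hoxa4, Hoxb2, Hoxb5 and Hoxb6. Among all 15838 probe sets tested, the unadjusted p was under 0.05 for 70 higher and 192 lower. With the replicate block it was 468 and 890 of them, and 599 and 956 with trend as well. Those higher numbered 122 under quantile normalization, 167 under median centring, 145 with pseudocount 64 and 158 with no filter, and 80 to 133 without 1 array. Those lower numbered 107 under median centring, 305 with pseudocount 1, 362 with no filter and 89 where the filter was the 50th percentile, and between 148 and 317 when an array was left out.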
